A study of Homo sapiens with 19 samples.

Results

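The Krüppel-like factors (KLF) are zinc finger proteins that bind CACCC elements and GC boxes in promoters. They were examined here in human embryonic stem cells (hESCs) during the first 3 days of differentiation into brown adipocytes (BAs). The set was KLF2, KLF3, KLF4, KLF5, KLF6, KLF7, KLF9, KLF10, KLF11 and KLF13, taken as all array probes whose RefSeq transcript carries one of these symbols. These are 10 of the 20503 genes that the array names, measured by 11 probes, 1 per gene and 2 for KLF6. KLF4 was taken as the reference, since the study follows it as one of its immature cell markers.

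KhES-3, a single hESC line previously grown on irradiated mouse embryonic fibroblasts, was moved to low-attachment dishes in a serum-free BA medium. This medium held BMP4 and KITLG at 20 ng/ml, IGF-II and VEGFA at 5 ng/ml, and FLT3LG and IL-6 at 2.5 ng/ml, and all samples received it. The study's methods differ on the earlier culture, since they describe feeder-free maintenance of KhES-3. Cells were harvested at 3, 4 and 6 h, then every 2 h up to 16 h, every 4 h up to 36 h and every 6 h up to 72 h, and each harvest went on 1 one-colour Agilent array. There was no undifferentiated sample, no untreated control and no replicate among the 19 arrays, so culture-to-culture spread could not be measured and the error of a trend is the scatter of single arrays about its curve.

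KLF proteins share 3 carboxy-terminal zinc fingers and differ in the rest of the protein, which decides the partners they recruit. KLF3, KLF8 and KLF12 bind CTBP corepressors. KLF1, KLF2, KLF4, KLF5, KLF6 and KLF7 mostly activate transcription, and KLF9, KLF10, KLF11, KLF13, KLF14 and KLF16 bind the SIN3A corepressor. In mouse embryonic stem cells, KLF2, KLF4 and KLF5 act together to maintain self-renewal, and KLF4 is one of the factors that return somatic cells to pluripotency. In fat cell differentiation, KLF4, KLF5, KLF6 and KLF9 are known as promoting factors, whereas KLF2, KLF3 and KLF7 are known as inhibitors.

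The arrays lay on 3 slides, which held the 6 arrays from 3 to 12 h, the 8 from 14 to 42 h and the 5 from 48 to 72 h, so time and slide overlap in part. Scanning took place on 1 day for the first 2 slides and afterwards for the last, which holds all 3 arrays of the late window (60, 66 and 72 h) used below, so slide, scan day and late time cannot be told apart in the differences between the early and late windows. Between 49.5% and 64.7% of the probes were well above background, with the lowest shares at 14 h (49.5%), 16 h (52.0%) and 72 h (53.8%). Of 6 detected pluripotency markers, none rose and 3 fell (5 with the array median, 2 with spike-in RNA and 0 with the slide as a block). POU5F1, SOX2 and NANOG were above background on all 19 arrays. Of 8 brown fat cell markers, ADIPOQ and FABP4 were above background on 0 arrays, PPARG on 5, and UCP1 and CIDEA on 8. PRDM16 was above background on 13 arrays, DIO2 on 18 and PPARGC1A on all 19, with PPARGC1A signals from 74.7 to 174. Of 10 fibroblast markers, PRRX1 was above background on 0 arrays, COL3A1 and LUM on 1, POSTN on 2 and DCN on 9, whereas COL1A1, COL1A2, THY1, TWIST1 and ACTA2 were on all 19.

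All 10 KLF genes were above background on all 19 arrays. Signals below are in arbitrary units of the scanner, scaled so that the 75th percentile of every array is 877. They compare 1 probe over time, not one gene with another. The trend of each gene is given as the exponent of a power curve, which is the change in log2 signal per unit of log2 hours. An exponent of 0.193, that of KLF4, means that the log2 signal rose by 0.193 for each doubling of time. Exponents were tested with limma over all 32113 probes that passed the filter on background, with Benjamini-Hochberg adjustment.

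Over 3 to 72 h, 2 of the 10 genes rose, KLF2 and KLF4, at an adjusted p under 0.05, against 32.7% of all probes tested. KLF6 alone fell, against 22.2% of all probes. Counted by gene, 24.7% of the 16694 tested rose and 29.9% fell. A cubic curve in log2 hours, which also finds genes that fall and recover, was called for 7 of the 10 genes (KLF2, KLF3, KLF4, KLF5, KLF9, KLF11 and KLF13). This share is close to the 74.3% found over all probes. The median exponent of the 10 genes was 0.05, beside -0.01 over the 16694 genes tested. As groups, the KLF genes were thus not called more often than other genes, and they are described one by one.

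**Figure D1:**
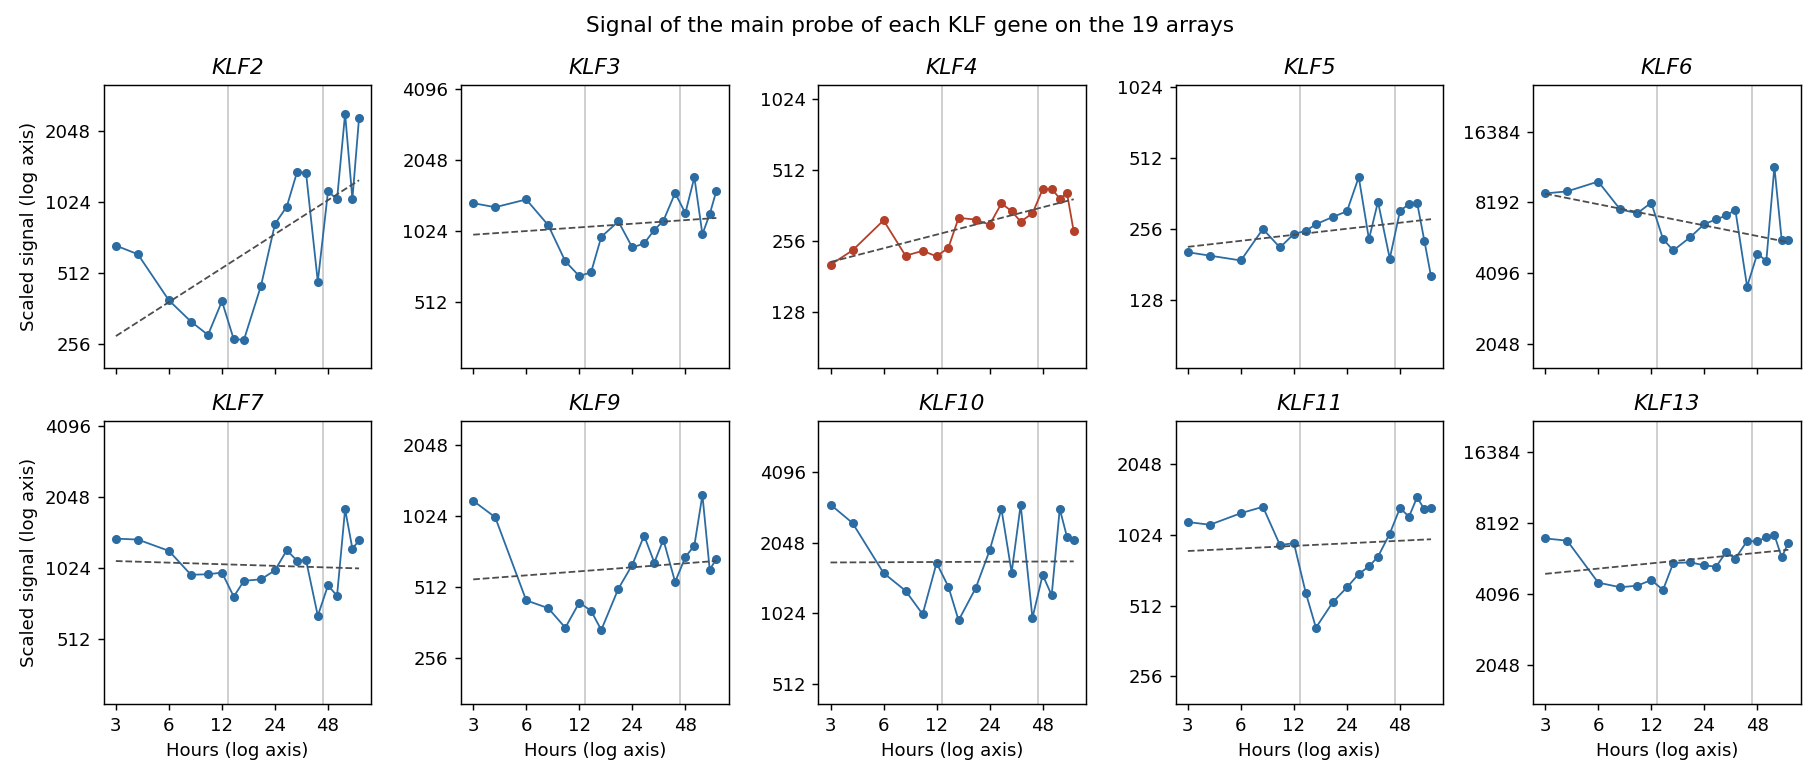
Scaled signal of the main probe of each KLF gene (vertical, log axis, arbitrary units, 16-fold range in every panel) against hours of differentiation (horizontal, log axis), with 1 point per array. Dashed lines are the fitted power curves and grey lines mark the change of slide; KLF4 (red) rose within a narrow range from 202 to 426, whereas KLF2 fell to 267 at 16 h and reached 2433 at 60 h.

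KLF4 rose slowly and with little scatter. Its signal was 202 at 3 h, its lowest value, had a median of 313 and reached 426 at 54 h. It stood at 313 at 6 h, between 220 and 239 from 8 to 14 h, between 299 and 369 from 16 to 42 h, and between 386 and 426 from 48 to 66 h. The last array broke this order, with 281 at 72 h, one of the 3 arrays with the fewest probes above background. The mean signal of the 60, 66 and 72 h arrays was 353 and that of the 3, 4 and 6 h arrays was 245, a log2 difference of 0.53. The exponent was 0.193 ± 0.037 (SE, n = 19 arrays, limma, adjusted p = 0.00026), and the arrays scattered around the power curve with an SD of 0.22 on the log2 scale. The scanner's own error estimate for this spot was at most 12.3% of the signal.

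The size of this rise depended on how the arrays were scaled. With the array median in place of the 75th percentile the KLF4 exponent was 0.095 (limma, adjusted p = 0.0466), and with spike-in RNA it was 0.099 (adjusted p = 0.313). On the spike-in scale its log2 difference between the windows turned to -0.12. These scalings shift all genes together, with a median log2 difference over all probes of 0.13, -0.24 and -0.52 in the order 75th percentile, array median and spike-in. In the same order, 59.6%, 28.0% and 23.3% of all called probes rose. The KLF4 difference was 0.40 above the median of all probes, a value that none of these scalings can change since each moves all probes of an array together. Normexp background correction followed by quantile normalization is not such a shift, and with it the KLF4 log2 difference was 0.30. With the slide as a block the exponent was 0.065 (adjusted p = 0.743), and within the slides it was 0.026, 0.20 and -0.83, none of which passed the test (adjusted p = 0.941, 0.272 and 0.169). The KLF4 curve (adjusted p = 0.0014) was not called with the array median (adjusted p = 0.141), with spike-in RNA (adjusted p = 0.0526) or with the slide as a block (adjusted p = 0.598). Adjusted p-values of the exponent over the 33 alternatives ran from 5.03e-05 to 0.941.

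KLF2, a factor of quiescent endothelium and T cells, had the widest course of the set. Its signal fell from 670 at 3 h to 268 at 14 h and 267 at 16 h, then rose to 1372 at 32 h and 1367 at 36 h. It dropped to 471 at 42 h, and then moved between 1052 and 2433, with its highest values at 60 h (2433) and 72 h (2335) and lower ones at 54 h (1052) and 66 h (1055). The median was 670. All signals from 24 h on were above those from 6 to 20 h, but neighbouring late arrays differed by up to 2.90-fold. The exponent was 0.48 ± 0.13 (SE, n = 19, limma, adjusted p = 0.00349), with a scatter SD of 0.79 on the log2 scale, and the curve had an adjusted p of 0.000126. The exponent stayed called with the array median (0.38, adjusted p = 0.0172) and with spike-in RNA (0.39, adjusted p = 0.0187). A slide block took the call away (0.25, adjusted p = 0.712), and it was -0.57 within slide 1, 1.24 within slide 2 (adjusted p = 0.0316) and 1.41 within slide 3. Without the 60, 66 and 72 h arrays the exponent was 0.34 (adjusted p = 0.0551). Of 8 endothelial and blood markers, KDR (0.41), CDH5 (0.18) and PTPRC (0.31) rose, and TEK (-0.46) and RUNX1 (-0.57) fell. The call of CDH5 was lost under both other scalings, and that of PTPRC with spike-in RNA. TAL1 was not called, PECAM1 was above background on 1 array and GATA1 on 0. With the slide as a block none of these endothelial and blood markers was called. The part of such cells in the KLF2 signal was not tested.

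The promoters of the 2 rising genes are shown to place them beside each other. Each is the stretch of 250 bases before the start of the gene on its own strand in RefSeq (GRCh38.p14), and capitals mark GGGCGG on either strand, so that CCGCCC is the same box on the other strand. The KLF2 window lies at chr19:16324576-16324825 (+ strand) and the KLF4 window at chr9:107489770-107490019 (- strand).
KLF2: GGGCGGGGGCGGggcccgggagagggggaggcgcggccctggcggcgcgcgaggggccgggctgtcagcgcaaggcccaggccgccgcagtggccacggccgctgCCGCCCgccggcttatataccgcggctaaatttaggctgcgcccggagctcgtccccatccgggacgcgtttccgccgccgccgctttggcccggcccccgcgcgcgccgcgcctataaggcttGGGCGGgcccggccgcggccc
KLF4: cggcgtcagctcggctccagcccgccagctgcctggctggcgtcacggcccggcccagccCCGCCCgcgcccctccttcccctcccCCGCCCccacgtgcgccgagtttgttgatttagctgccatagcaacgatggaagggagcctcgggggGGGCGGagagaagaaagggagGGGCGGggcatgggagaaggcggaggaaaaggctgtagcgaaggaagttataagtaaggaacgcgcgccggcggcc
Both windows held 4 GGGCGG matches and no CACCC, with a GC content of 80.0% and 69.2%. Over the 35116 promoter windows of this length in the RefSeq table, 42.6% held at least 1 GGGCGG and 54.7% at least 1 CACCC on either strand. Windows were given for 8 of the 10 genes, 13 in all, and CACCC was found in 6 of the 13. Windows of KLF6, KLF7 and KLF11 also held GGGCGG without CACCC, so this pattern is not particular to the rising genes. KLF9, whose window had a GC content of 32.4%, held neither motif. A match in these letters is a description of the window and not evidence of binding.

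KLF5 belongs with KLF2 and KLF4 in the mouse self-renewal circuit and is also needed for adipocyte differentiation. Its signal lay between 162 and 426, with a median of 252. It was between 189 and 204 on the first 3 arrays, highest at 28 h (426), and lowest on the last array, at 72 h (162). The exponent of 0.085 ± 0.057 (SE, n = 19, limma, adjusted p = 0.209) was not called. Without the 72 h array KLF5 was called as rising (0.13, adjusted p = 0.0273), as it was over 3 to 54 h (0.16, adjusted p = 0.0189). The curve was called (adjusted p = 0.0352), but not with the array median (adjusted p = 0.218), with normexp (adjusted p = 0.132) or with the slide as a block (adjusted p = 0.0505). The low 72 h signal set this gene apart from KLF2, whose 72 h signal was the second highest of its series. That contrast rests on a single array, on which only 53.8% of the probes were well above background.

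KLF6 was the 1 gene of the set that fell. Its signal was 8946, 9130 and 10049 on the 3, 4 and 6 h arrays, between 5121 and 8167 from 8 to 36 h, and lowest at 42 h (3599). After 4962 at 48 h and 4626 at 54 h, it reached 11605 at 60 h, its highest value, and was 5672 and 5651 on the last 2 arrays. Apart from the 60 h array, every signal after 36 h was below those of the first 3 arrays. The exponent was -0.15 ± 0.061 (SE, n = 19, limma, adjusted p = 0.0441), close to the threshold, and the call was lost in 12 of the 19 fits that left out 1 array. The second KLF6 probe, for the transcript NM_001160124, ran the other way. It was above background on 18 arrays, with signals from 70.2 at 16 h to 216 at 60 h, and had an exponent of 0.14 ± 0.058 (limma, adjusted p = 0.0493). The probes thus disagreed in direction over time, but both had their highest signal at 60 h. The dimmer probe had a scanner error estimate of up to 24.5% of its signal.

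KLF7, a widely expressed factor known for its role in neurons and as an inhibitor of adipogenesis, had no called trend. Its signal was 1362 at 3 h, had a median of 999, fell to its lowest value of 641 at 42 h and was highest at 60 h (1817). The exponent was -0.02 ± 0.059 (SE, limma, adjusted p = 0.764) and the curve was not called (adjusted p = 0.108). Over 3 to 54 h, without its high last arrays, KLF7 was called as falling (-0.14, adjusted p = 0.0197), and with the array median its curve was called (adjusted p = 0.0225).

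KLF3, a CTBP-binding repressor that restrains adipogenesis, fell and recovered. Its signal was between 1291 and 1393 on the first 3 arrays, reached its lowest value of 658 at 12 h, and climbed back to 1483 at 42 h and 1729 at 54 h. The curve was called (limma, adjusted p = 0.0152) and the exponent was not (0.05 ± 0.063, SE, n = 19, adjusted p = 0.507), as the first and last windows had means of 1342 and 1219. The curve was not called with spike-in RNA (adjusted p = 0.187) or with the slide as a block (adjusted p = 0.127).

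The SIN3A-binding members KLF9, KLF11 and KLF13 also had called curves with a trough, at 14 h for KLF13 and at 16 h for KLF9 and KLF11. KLF9, which glucocorticoids induce and which promotes adipogenesis, dropped from 1192 at 3 h to 450 at 6 h and 337 at 16 h. It was between 505 and 848 from 20 to 54 h and peaked at 1262 at 60 h. Its fall within slide 1 was called (exponent -0.88 ± 0.21, SE, n = 6 arrays, limma, adjusted p = 0.0232), as was that of KLF13 (-0.37 ± 0.084, adjusted p = 0.0202). Over all probes, 2.4% fell within slide 1. KLF13, first known as a factor of late T cell activation, started at 7063 at 3 h, fell to 4583 at 6 h and to its lowest signal of 4269 at 14 h, and was highest on the 60 h array (7298). Its range was the narrowest of the set, 1.71-fold, and its curve had the least scatter, with an SD of 0.13 on the log2 scale (adjusted p = 4.6e-05).

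KLF11, a factor induced by TGFB that acts with PPARG in human fat cells, followed a later course. Its signal was between 1128 and 1344 from 3 to 8 h, 925 and 942 on the 10 and 12 h arrays, and dropped to 581 at 14 h and 412 at 16 h. From there it rose on every array up to 48 h, through 611 at 24 h and 825 at 36 h to 1329, and was highest at 60 h (1476). The rise within slide 2 was called for KLF11 (exponent 0.65 ± 0.12, SE, n = 8 arrays, limma, adjusted p = 0.00313) and for KLF2, 2 of the 10 genes against 10.7% of all probes. The troughs lay on the 14 and 16 h arrays, which open the second slide and had the fewest probes above background. KLF13 was lowest at 14 h, and KLF2, KLF9, KLF10 and KLF11 at 16 h. Leaving out either array kept the curves of KLF2, KLF9, KLF11 and KLF13 called, and leaving out both was not tested. The curves of KLF2, KLF9, KLF11 and KLF13 were also called with the slide as a block (adjusted p = 0.04996, 0.0063, 0.0469 and 0.00583). The share of all probes with a curve called under this block was not counted, so these calls cannot be set against it. Not all alternatives kept these curves, since the KLF11 curve was not called with spike-in RNA (adjusted p = 0.155) and the KLF9 curve not with hours as the time axis (adjusted p = 0.0508).

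One of the 2 KLF11 promoter windows is shown, because it was the only 1 of the 13 with the cyclic AMP response element TGACGTCA, found in 1.65% of all windows. It lies at chr2:10043971-10044220 (+ strand, GRCh38.p14), with GGGCGG or its reverse, TGACGTCA and CACCC in capitals.
KLF11: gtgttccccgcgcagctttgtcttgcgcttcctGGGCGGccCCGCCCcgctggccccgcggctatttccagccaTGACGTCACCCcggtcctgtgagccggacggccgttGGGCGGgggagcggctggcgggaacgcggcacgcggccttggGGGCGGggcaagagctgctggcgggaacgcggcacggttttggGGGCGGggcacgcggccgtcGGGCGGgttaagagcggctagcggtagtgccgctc
The element begins 176 bases before the start and overlaps the single CACCC of the window, and the window held 6 GGGCGG matches. The other KLF11 window, chr2:10043579-10043828, held 2 GGGCGG and no CACCC.

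KLF10, the early gene of the TGFB response, went up and down between neighbouring arrays. Its signal was 2968 at 3 h, its highest value, and 957 at 16 h, its lowest. It then alternated between high signals on the 28, 36 and 60 h arrays (2844, 2958 and 2846) and low ones on the 32, 42 and 54 h arrays (1528, 980 and 1222). Neither the exponent (0.003 ± 0.091, SE, n = 19, limma, adjusted p = 0.978) nor the curve (adjusted p = 0.0786) was called.

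Next, the trend of each relative was set against that of KLF4 on the same arrays. The ratio of a probe to the KLF4 probe does not depend on a scaling that moves all probes of an array together. Its slope is the difference between the exponents. Of the 9 relatives, 0 had a called exponent above that of KLF4, against 4.16% of all probes, and 2, KLF6 and KLF7, had one below it, against 52.3%. KLF6 differed from KLF4 by -0.34 (95% interval -0.49 to -0.20, limma, adjusted p = 0.000238). The second KLF6 probe was not called below KLF4 (-0.05, -0.20 to 0.09, adjusted p = 0.53). KLF7 differed by -0.22 (-0.36 to -0.07, adjusted p = 0.00961). KLF2 rose more steeply by 0.29 (0.03 to 0.54), which did not pass the adjusted test (adjusted p = 0.0519). At the unadjusted level this interval leaves out 0, as do those of KLF3 (-0.27 to -0.01, adjusted p = 0.0562) and KLF13 (-0.23 to -0.01, adjusted p = 0.0526). The intervals of KLF5 (-0.23 to 0.01), KLF9 (-0.32 to 0.05), KLF10 (-0.39 to 0.01) and KLF11 (-0.35 to 0.03) include 0 and reach differences larger than the KLF4 exponent itself. With the slide as a block KLF6 and KLF7 were not called below KLF4, and without the 72 h array 5 were (KLF3, KLF6, KLF7, KLF10 and KLF13).

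**Figure D2:**
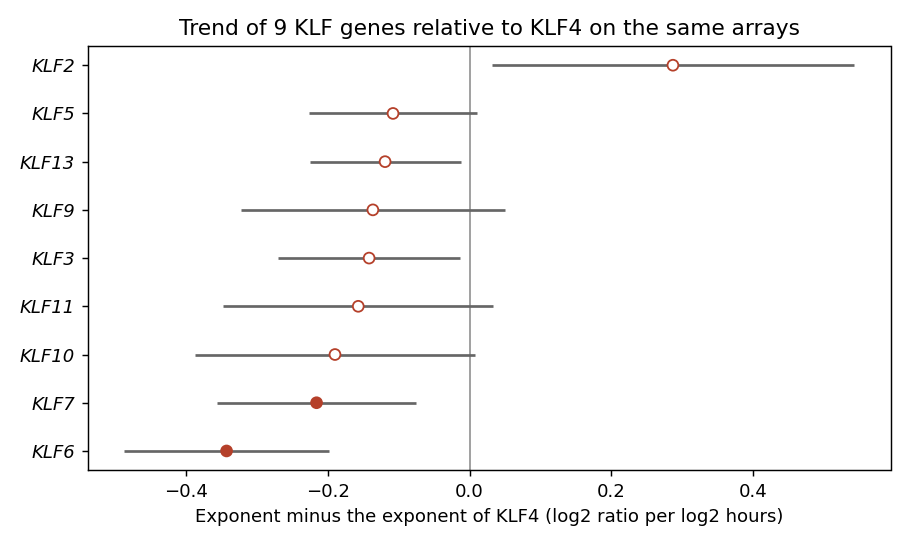
Exponent of each KLF gene minus that of KLF4 (horizontal, log2 ratio per log2 hours), with the 95% interval over the 19 arrays and filled points where the limma adjusted p is under 0.05. Only KLF6 and KLF7 carry filled points, both to the left of 0, and KLF2 is the 1 relative to the right.

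**Figure D3:**
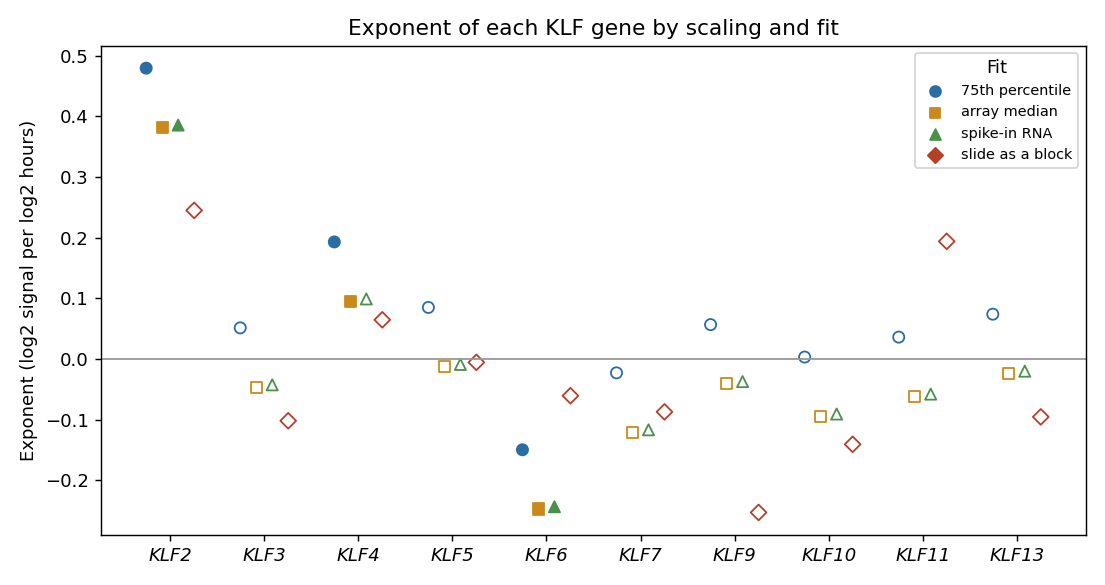
Exponent of each KLF gene (vertical, log2 signal per log2 hours) with 3 scalings and with the slide as a block, filled where the limma adjusted p is under 0.05. KLF2 and KLF4 lie above 0 and KLF6 and KLF7 below it in all 4 fits, no point is filled with the slide as a block, and the other genes change sign between fits.

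Some changes fell between a pair of neighbouring arrays of 1 slide, and involved several KLF genes at once. These 3 steps were picked after the values were seen, so they are a description with no test. From 4 to 6 h, 4 of the 10 genes fell at least 1.5-fold (KLF2, KLF9, KLF10 and KLF13), against 3.93% of all probes, and 2 did with normexp background correction, against 0.813%. From 36 to 42 h, 6 fell (KLF2, KLF5, KLF6, KLF7, KLF9 and KLF10), against 5.33%. From 54 to 60 h, 5 rose (KLF2, KLF6, KLF7, KLF9 and KLF10), against 4.68%. The largest of these were the 3.02-fold fall of KLF10 and the 2.90-fold fall of KLF2 at 42 h, and the 2.51-fold rise of KLF6 at 60 h. KLF4 took no part, with log2 differences of 0.42, 0.12 and -0.14 at the 3 steps. Nor did KLF11, whose signal changed by 1.12-, 1.25- and 1.21-fold, while KLF3 fell 1.74-fold from 54 to 60 h.

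KLF2, KLF4, KLF6 and KLF10 are known as genes that respond quickly to stimuli, like EGR1, FOS, JUN, IER2, ATF3 and MYC, so the same steps were read in these 6 genes. One of them, EGR1, fell at least 1.5-fold from 4 to 6 h (2.40-fold). From 36 to 42 h, 4 fell, led by ATF3 (3.09-fold) and MYC (2.65-fold), and from 54 to 60 h all 6 rose, led by FOS (3.02-fold). The KLF genes that moved at 42 and 60 h were thus accompanied by early response genes on the same arrays. Whether handling of these single harvests had a part in the steps was not tested, and with 1 culture per time point a step cannot be told apart from a difference between cultures.

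**Figure D4:**
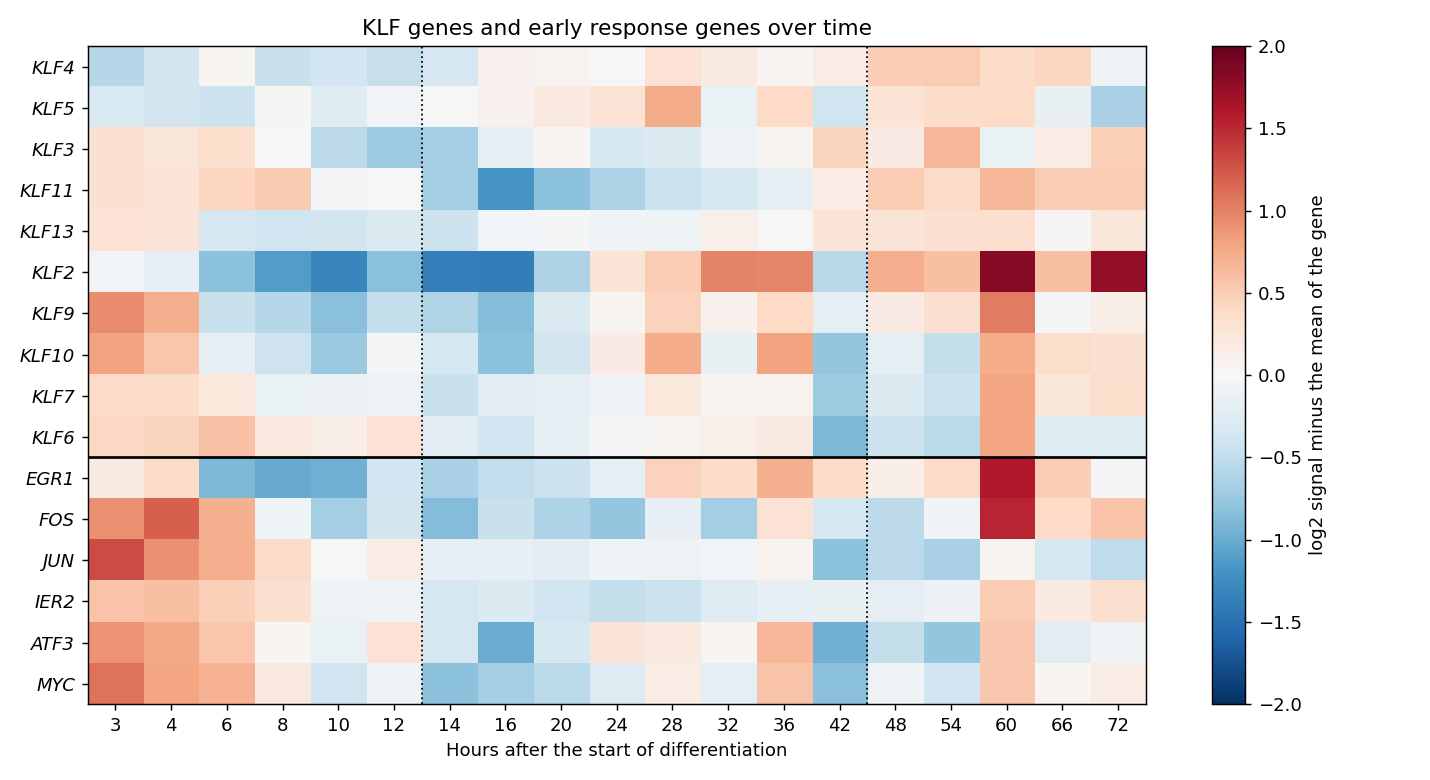
log2 signal of the 10 KLF genes (above the line) and 6 early response genes (below it) minus the mean of each gene, on the 19 arrays in order of time (horizontal, hours), with dotted lines between slides. The 60 h column is red for KLF2, KLF6, KLF7, KLF9, KLF10 and KLF11, and paler red for KLF4, KLF5 and KLF13. It is also red for the early response genes other than JUN, which lay near its mean. Red is deepest there for KLF2, EGR1 and FOS, and KLF4 shows a pale, slow change from blue to red.

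Pairs of KLF genes followed each other to different degrees over the 19 arrays. KLF9 and KLF10 had the highest correlation of log2 signal (r = 0.81), followed by KLF7 with KLF10 (0.80), KLF6 with KLF7 (0.78), KLF9 with KLF13 (0.76) and KLF2 with KLF9 (0.75). KLF4 correlated at most moderately with a relative, from 0.54 for KLF2, 0.47 for KLF5 and 0.44 for KLF13 to -0.38 for KLF6. Among 13968 genes ranked by their correlation with KLF4, KLF2 was at rank 2231 and KLF6 at rank 9187. The genes most like KLF4 were DECR1 (0.893), an enzyme of mitochondrial fatty acid oxidation, the glutathione transferases GSTM4 (0.888) and GSTA4 (0.887), the protease CTSK (0.885) and CRYM (0.884). The least like were GATD1 (-0.89), GCN1 (-0.87), BMP7 (-0.87), ABHD14A (-0.86) and PSMB10 (-0.86). These coefficients share arrays, slides and time order and are descriptive.

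The rest of the family was read with the same fits. Of the 7 other KLF genes, KLF15 was above background on 0 arrays and KLF14 on 2, and the other 5 were tested. KLF17, a gene of the human naive state, rose (exponent 0.14, limma, adjusted p = 0.00683), a call lost with the array median (0.04, adjusted p = 0.332) and spike-in RNA (0.05, adjusted p = 0.676). KLF12, a CTBP-binding repressor, fell (-0.17, adjusted p = 0.0041) and stayed called under both. KLF8 had a called curve (adjusted p = 1.06e-06) and an exponent of -0.04, and KLF1 and KLF16 had exponents of -0.04 with neither called. With the array median, KLF1 (-0.13, adjusted p = 0.000135) and KLF16 (-0.13, adjusted p = 0.000626) were called as falling. With spike-in RNA they were not (adjusted p = 0.0992 and 0.13). The SP genes, which bind the same GC boxes, moved in both directions. SP7, a factor of bone formation (0.26, adjusted p = 0.000167), and SP9 (0.15, adjusted p = 0.0408) rose, but SP9 was not called with the array median (adjusted p = 0.507) and neither was called with spike-in RNA (adjusted p = 0.0881 and 0.523). The widely expressed SP1 (-0.12, adjusted p = 0.00707), SP2 (-0.41, adjusted p = 4.11e-06), SP3 (-0.10, adjusted p = 0.00947) and SP4 (-0.09, adjusted p = 0.00567) fell, under all 3 scalings. SP5, SP6 and SP8 had exponents of 0.18, -0.07 and 0.12 that were not called.

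Genes that KLF proteins work with are summarised by the same test, beside 24.7% rising and 29.9% falling of all genes tested. Rises in these lists depended on the scaling, so counts with the array median and with spike-in RNA follow each. With the slide as a block no gene of the other KLF, SP, cofactor, turnover, signalling, partner or target lists was called by limma, and SP1, SP7, KLF12, LIFR and MEF2D were among those that changed sign. Of 10 cofactors, 1 rose (SIN3B, 0.18) and 6 fell, the largest fall being that of CREBBP (-0.22), an acetyltransferase that KLF activators recruit. With the array median 0 rose and 8 fell, and with spike-in RNA 0 rose and 6 fell. CTBP1, CTBP2 and SIN3A, the corepressors named above, were among the 6, with exponents of -0.08, -0.16 and -0.09. Of 9 enzymes of KLF protein turnover or modification, 0 rose and 3 fell, led by the deubiquitinase USP10 (-0.18), while 5 and 3 fell under the other scalings. Of 15 genes of upstream signalling, 5 rose, led by LIFR (0.19), the LIF receptor that acts above KLF4 in mouse cells, with MEF2C (0.19), MEF2D (0.14) and MAP2K5 (0.10) of the pathway above KLF2. All 5 rises were lost under both other scalings, where 5 and 2 of the genes fell. The 2 that fell with the 75th percentile were SMAD3 (-0.31) and TGFBR1 (-0.22) of the TGFB pathway above KLF10 and KLF11.

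Of 10 partners of KLF2, KLF4 and KLF5 in naive pluripotency, 1 rose, ESRRB (0.23), and 4 fell, led by DPPA3 (-0.39). With the array median 1 rose and 8 fell, and with spike-in RNA 0 rose and 5 fell. Of 14 known target genes, 5 rose, led by TXNIP (0.58), a brake on glucose uptake, and including the KLF2 target NOS3 (0.34), and these 2 stayed called under both other scalings. The 4 that fell (5 with the array median, 4 with spike-in RNA) included THBD (-0.33), which KLF2 activates in endothelium and which was above background on 10 of the 19 arrays. In these bulk samples a lower signal can come from fewer cells of a type or from less RNA per cell, which cannot be told apart.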

How the data were processed

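RNA of KhES-3 cells was labelled with Cy3 and hybridized to Agilent human one-colour arrays, 1 per time point (19 in all). The authors deposited the output of Agilent Feature Extraction (10.10.1.1), in which the processed intensity of a spot has background and spatial trends removed, and a table of the same intensity multiplied by 1 factor per array. The array output also held raw median intensities and flags of 0 or 1. Symbols came from RefSeq accessions (28174 of 50683 probes). Flagged spots were left out, repeated spots were averaged per probe, and log2 intensity minus the 75th percentile of the array (655 to 1003 as deposited) was used. Depth has no meaning for arrays, and their number limits the precision.

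Slopes on log2 hours, cubic curves in log2 hours (F test, 3 df) and slopes of the ratio to KLF4 were fitted in R 4.3.3. The probes fitted were those that 5 or more arrays measured well above background. Slopes used lmFit of limma 3.58.1, and variances were moderated with its squeezeVar. The p-values were adjusted by Benjamini-Hochberg, and the fits were tested on simulated data. The p-values treat the 19 arrays as independent. Step folds and correlations were computed in R. Reading of the array output and promoter matches used Python 3.11.15 with pandas 2.3.3 and numpy 2.4.6. A gene was represented by its probe with the highest mean log2 signal.

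The members, gene lists and tests were chosen with earlier results of these data known. Genes named are the 10 members with all their probes, other detected KLF and SP genes, the called genes with the largest rise and fall of each list, and the 5 most and 5 least correlated with KLF4. Other names and the 3 steps between arrays were added after their values were seen. Promoters of KLF3 and KLF10 were not analysed here. One gene that this rule names is not reported here.

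The alternatives were the array median or 7 of 10 spike-in RNA levels for scaling, normexp (offset 50, on median pixel intensities) followed by quantile normalization, the deposited table of intensities, no filter or a filter on all 19 arrays, hours as the time axis, the slide as a block or a slope per slide, 3 to 54 h only, the mean of all probes, 72 h over 3 h, and each array left out. Leaving out both the 14 and 72 h arrays and a step of at least 2-fold were chosen after seeing the data, as were all alternatives of the steps.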

Additional observations from a re-analysis of the deposited data

How the results depend on the processing

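Counts moved as follows. The 2 rising genes became 1 with spike-in RNA (KLF2) and 0 with the slide as a block, and 3 with normexp and hours (KLF13 added) and without the 14 and 72 h arrays (KLF5 added). For 3 to 54 h they were KLF4 and KLF5. The 1 falling gene became 0 with normexp, no filter, hours, the slide as a block, the mean of all probes and without the 14 and 72 h arrays, and 2 for 3 to 54 h (KLF6 and KLF7). The 7 curves became 4 with the slide as a block and 5 with spike-in RNA (KLF3, KLF4 and KLF11 lost, KLF6 gained). They became 8 with the array median (KLF4 and KLF5 lost, KLF6, KLF7 and KLF10 gained) and for 3 to 54 h (KLF5 lost, KLF6 and KLF7 gained). They became 6 with normexp, the deposited table and no filter (KLF5 lost) and with hours (KLF9 lost). Without the 14 and 72 h arrays they became 5 (KLF3 and KLF5 lost). Shares of all probes with a called curve were not counted under these alternatives. The 0 relatives above KLF4 became 1 (KLF2) with normexp, the deposited table, the filter on all 19 arrays and hours. The 2 below became 1 with normexp, 4 with the filter on all arrays, 0 with the slide as a block, and 6 for 3 to 54 h and without the 14 and 72 h arrays. In the limma fit with the slide as a block, 0 genes had a rise or fall at an unadjusted p under 0.05, and 0 relatives differed from KLF4 at that level. With 1 array left out in turn, 2 to 3 genes rose, 0 to 1 fell, 6 to 8 had a curve, 0 to 1 relatives lay above KLF4 and 1 to 5 below, and the KLF4 exponent ran from 0.183 to 0.221. The falls from 4 to 6 h dropped to 2 with normexp and 1 at 2-fold, and those from 36 to 42 h to 3 at 2-fold.

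The KLF4 exponent was 0.099 with spike-in RNA, 0.065 with the slide as a block, and 0.026, 0.20 and -0.83 within slides 1, 2 and 3, and its log2 change with spike-in RNA was -0.12. Exponents that changed sign were, with the array median, -0.046 for KLF3, -0.013 for KLF5, -0.041 for KLF9, -0.094 for KLF10, -0.061 for KLF11 and -0.024 for KLF13. With spike-in RNA they were -0.042, -0.0088, -0.037, -0.091, -0.058 and -0.020 for the same genes in that order. With the slide as a block they were -0.10 for KLF3, -0.0054 for KLF5, -0.25 for KLF9, -0.14 for KLF10 and -0.095 for KLF13. For 3 to 54 h they were -0.0085 for KLF9, -0.11 for KLF10 and -0.084 for KLF11, without the 14 and 72 h arrays -0.021 for KLF10 and -0.00090 for KLF11, with the deposited table -0.014 for KLF10, and with hours 0.0021 for KLF7. Within slide 1 they were -0.57 for KLF2, -0.51 for KLF3, -0.88 for KLF9, -0.62 for KLF10, -0.13 for KLF11 and -0.37 for KLF13. Within slide 2 they were -0.056 for KLF5 and 0.059 for KLF7, and within slide 3 -1.55 for KLF5, 0.53 for KLF6, 1.36 for KLF7, -0.21 for KLF9 and -0.22 for KLF13. Relative to KLF4, KLF13 was at 0.026 with normexp and KLF11 at 0.13 with the slide as a block. With 1 array left out, the exponent ran from -0.035 to 0.093 for KLF10 and from -0.065 to 0.012 for KLF7.

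The cause of these differences was not tested. The 75th percentile, array median and spike-in RNA left 59.6%, 28.0% and 23.3% of all called probes rising. No paired analysis was possible because no time point has a second array.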
